A study of Mus musculus with 16 samples.

Results

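Peak lists of 3 chromatin features of LIF-ESCs were set against each other within the same culture: trimethylation of histone H3 at lysine 4 (H3K4me3), trimethylation at lysine 27 (H3K27me3), and binding of Suz12. The 3 peak lists of this culture were taken out of the 6 lists of the series, and they stand on 6 ChIP libraries of 16 libraries in all. LIF-ESCs were R1 mouse ESCs that carry MycER, a fusion of Myc with part of the estrogen receptor that 4-hydroxytamoxifen (OHT) switches on. Their medium held serum, vitamin C and 100 units/ml of LIF but no OHT, and no feeder cells were used, so that the transgene was present and not induced. Each antibody was used on 2 samples, which the labels do not assign to separate cultures, and 2 input samples were sequenced. The study's methods describe MycER lines that are single clones, one of them with a mutant Myc, and the labels do not say which was used. The Myc-ESC culture was not used here.

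H3K4me3 is laid down by the MLL and Set1 complexes and marks promoters, above all those rich in CpG dinucleotides. Suz12 is a core subunit of Polycomb repressive complex 2 (PRC2), whose Ezh subunits trimethylate H3K27, and both are known for holding developmental genes silent. In ESCs many promoters carry H3K4me3 and PRC2 marks together and are called bivalent. The present comparison asked which combinations of the marks occurred, how the strength of a mark related to the presence of the others, where the Polycomb peaks lay within H3K4me3 peaks, and which genes each combination held.

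The lists held 32469 H3K4me3, 3120 H3K27me3 and 11305 Suz12 peaks, with median lengths of 2316, 157 and 262 bp. Each peak has a score, the peak caller's p-value on a negative log scale, from 50.0 upward. The median score was 300 for H3K4me3, 63.7 for H3K27me3 and 90.4 for Suz12, so that most H3K27me3 peaks lay just above the limit of detection. Each mark has a single list and no read counts, so the depth is unknown and nothing could be set against replicate error. No test was run. Intervals are 95% Wilson intervals, which cover counting error only and treat peaks or genes as independent. A missing peak means that the mark was not called, not that it was absent, and this weighs most on H3K27me3, the shortest list. Of 20 genes of naive pluripotency, which mark ESCs, 20 had H3K4me3 at the start site, against 62.7% of all genes. Of 10 fibroblast genes 3 had it, and of 12 trophoblast and endoderm genes 10. H3K4me3 by itself thus did not set ESC genes apart from those of every other lineage.

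The promoters of 4 genes are shown as the leading examples of their combinations. By the rule for named genes, each is the first protein-coding gene of its combination that has a promoter in the RefSeq table. Each runs from 250 bases before the start site to 50 bases after it on GRCm38.p6, and CG is written in capitals. Evx2, a homeobox gene at the end of the HoxD cluster, had all 3 marks (chr2:74659508-74659807, minus strand). Pcdh7, a cell adhesion protein of the protocadherin family, had H3K4me3 and Suz12 (chr5:57717831-57718130, plus strand). Foxb2, a forkhead factor, had Suz12 alone (chr19:16873781-16874080, minus strand). Jade1, a subunit of histone acetyltransferase complexes, had H3K4me3 alone (chr3:41555484-41555783, plus strand).
Evx2: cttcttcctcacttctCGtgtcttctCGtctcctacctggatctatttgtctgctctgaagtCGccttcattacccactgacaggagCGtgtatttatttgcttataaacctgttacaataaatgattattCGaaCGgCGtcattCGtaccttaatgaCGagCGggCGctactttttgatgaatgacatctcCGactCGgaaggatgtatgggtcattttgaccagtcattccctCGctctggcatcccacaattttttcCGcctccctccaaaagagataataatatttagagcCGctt
Pcdh7: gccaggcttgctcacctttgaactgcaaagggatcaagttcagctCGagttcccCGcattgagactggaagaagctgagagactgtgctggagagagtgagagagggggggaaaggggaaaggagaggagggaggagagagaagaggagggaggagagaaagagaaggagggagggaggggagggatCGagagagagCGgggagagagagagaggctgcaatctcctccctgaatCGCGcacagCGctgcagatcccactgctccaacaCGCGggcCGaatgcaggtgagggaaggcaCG
Foxb2: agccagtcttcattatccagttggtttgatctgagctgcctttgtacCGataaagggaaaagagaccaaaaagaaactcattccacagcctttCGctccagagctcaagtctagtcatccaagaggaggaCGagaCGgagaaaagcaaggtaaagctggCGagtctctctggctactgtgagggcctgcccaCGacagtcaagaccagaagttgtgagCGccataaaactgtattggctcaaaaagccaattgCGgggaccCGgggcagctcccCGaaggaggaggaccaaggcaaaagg
Jade1: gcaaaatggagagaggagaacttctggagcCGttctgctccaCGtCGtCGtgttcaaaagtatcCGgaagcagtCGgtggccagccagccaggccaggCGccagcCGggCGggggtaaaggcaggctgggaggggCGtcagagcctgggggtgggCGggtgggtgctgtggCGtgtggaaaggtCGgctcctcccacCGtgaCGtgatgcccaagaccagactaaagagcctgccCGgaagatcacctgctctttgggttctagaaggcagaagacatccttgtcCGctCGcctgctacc
The 300 bases of Jade1 held 18 CG, those of Evx2 16, those of Pcdh7 11 and those of Foxb2 10. The ratio of observed to expected CpG was 1.13 in Evx2, 0.625 in Jade1, 0.502 in Foxb2 and 0.493 in Pcdh7. The GC content of Evx2 was the lowest of the 4, at 44.3%, against 62.7% in Jade1 and a median of 65.3% over the promoters with all 3 marks, so that Evx2 is no typical member of its class. The combination was set over a window of 5001 bp, and the H3K4me3 peak of Evx2 reached just its edge, outside the bases printed.

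Peaks of the 3 lists within 1000 bp of each other were joined, which gave 31775 regions. H3K4me3 alone made up 26782 of them (84.3%, interval 83.9 to 84.7%). H3K4me3 with Suz12 followed with 2506 regions (7.89%, interval 7.60 to 8.19%), and all 3 marks were found together in 861 (2.71%, interval 2.54 to 2.89%). H3K27me3 alone made 638 regions, Suz12 alone 591, H3K27me3 with Suz12 214, and H3K4me3 with H3K27me3 but no Suz12 183. Regions with all 3 marks were the longest, with a median of 3690 bp against 2362 bp for H3K4me3 alone. In their median, H3K4me3 covered 2807 bp, Suz12 1723 bp and H3K27me3 185 bp.

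**Figure D1:**
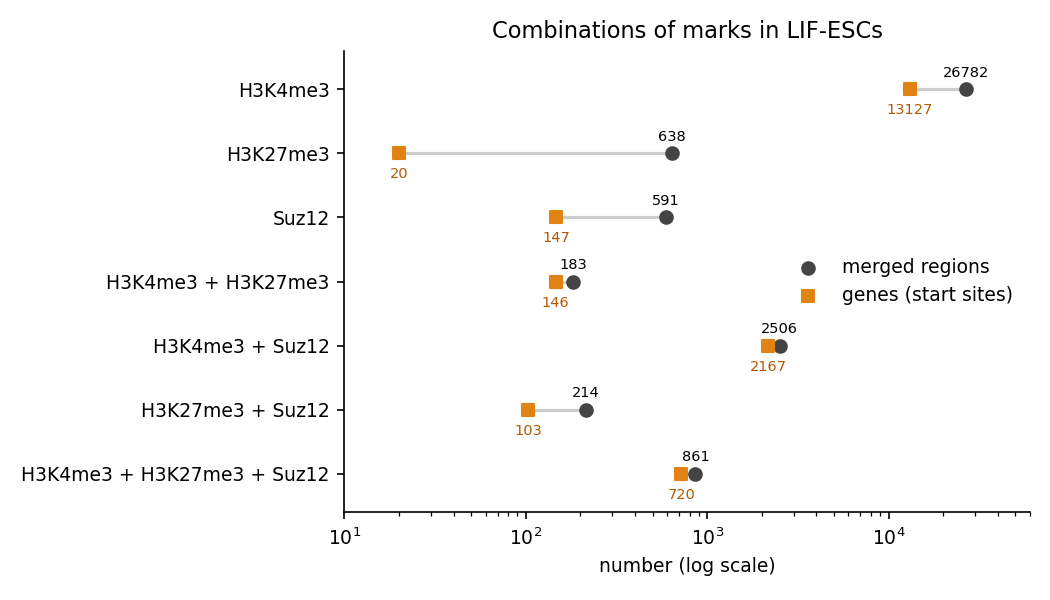
Number of merged regions (circles) and of genes (squares) with each combination of H3K4me3, H3K27me3 and Suz12 peaks in LIF-ESCs, on a log axis. H3K4me3 alone had 26782 regions and 13127 genes, and all 3 marks had 861 regions and 720 genes.

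The combinations differed in how often they held a transcription start site. A start site lay in 79.3% of the regions with all 3 marks (interval 76.5 to 81.9%), in 73.0% of those with H3K4me3 and Suz12 (interval 71.2 to 74.7%) and in 69.4% of those with H3K4me3 and H3K27me3 (interval 62.4 to 75.6%). For H3K4me3 alone it was 40.4% (interval 39.8 to 41.0%). Without H3K4me3 the shares were 20.1% for H3K27me3 with Suz12 and 7.45% for Suz12 alone. Of 638 regions with H3K27me3 alone, 1 held a start site. These regions were short, with a median of 155 bp, poor in CpG, with a median ratio of 0.122, and 40.9% of them (interval 37.2 to 44.8%) lay on sequence present more than once in the genome.

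Taken list by list, the relations were unequal. Of the Suz12 peaks, 76.1% (interval 75.3 to 76.9%) lay within 1000 bp of an H3K4me3 peak and 23.6% (interval 22.8 to 24.4%) near an H3K27me3 peak. Of the H3K27me3 peaks, 66.5% (interval 64.9 to 68.2%) lay near Suz12 and 50.1% (interval 48.4 to 51.9%) near H3K4me3. Of the far longer H3K4me3 list, 11.3% (interval 11.0 to 11.7%) lay near Suz12 and 3.46% (interval 3.27 to 3.67%) near H3K27me3. At start sites, 88.7% of the Suz12 peaks were near H3K4me3, against 52.9% of those farther than 2500 bp from any start site. For H3K27me3 the same shares were 74.2 and 31.7%.

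Marks were then assigned to 25755 genes, each with any peak that reached within 2500 bp of a start site. H3K4me3 was found at 62.7% of all genes, Suz12 at 12.2% and H3K27me3 at 3.84%. The largest class was H3K4me3 alone, with 13127 genes (51.0%), and 9325 genes (36.2%) had no mark. H3K4me3 and Suz12 without H3K27me3 marked 2167 genes (8.41%), and all 3 marks were at 720 genes (2.80%). The remaining classes were small: 147 genes had Suz12 alone, 146 H3K4me3 and H3K27me3, 103 H3K27me3 and Suz12, and 20 H3K27me3 alone.

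Suz12 was called at 17.9% of the genes with H3K4me3 (interval 17.3 to 18.5%) and at 2.61% of those without it (interval 2.31 to 2.94%). In the other direction, 92.0% of the genes with Suz12 had H3K4me3 (interval 91.0 to 92.9%). H3K27me3 went with Suz12: it was called at 24.9% of the genes with H3K4me3 and Suz12 (interval 23.4 to 26.6%) and at 1.10% of those with H3K4me3 and no Suz12 (interval 0.936 to 1.29%). The first share rests on the settings, since it was 11.7% in a window of 1000 bp, 3.22% for scores of at least 100 and 41.9% with lists cut to equal length. Among 250 genes with Suz12 and no H3K4me3 the share was 41.2% (interval 35.3 to 47.4%). That class, however, held 25 genes of 5S ribosomal RNA, which lie in 1 tandem array and all carried H3K27me3 and Suz12. Among protein-coding genes the shares were 24.3% with H3K4me3 (interval 22.6 to 26.0%) and 29.7% without it (interval 23.3 to 37.1%), with overlapping intervals.

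The presence of Suz12 at an H3K4me3 peak depended on the score of that peak in a humped way. The H3K4me3 peaks were ordered by score into 10 bins of equal size, from bin 1 to bin 10. The share of peaks near Suz12 went from 6.28% in bin 1 to 23.9% in bin 7 (interval 22.5 to 25.4%). It was 14.8% in bin 8, 4.99% in bin 9 and 2.34% in bin 10 (interval 1.87 to 2.92%). H3K27me3 had the same shape at a lower level, with 1.82% in bin 1, 7.24% in bin 7 and 0.893% in bin 10. Among the H3K4me3 peaks at start sites the hump was higher and lay earlier: Suz12 was near 22.9% in bin 1, 42.5% in bin 6 and 2.23% in bin 10. H3K4me3 peaks of intermediate length also stood above the rest. Suz12 was near 7.67% of the shortest quintile, 17.0% of the middle quintile and 7.02% of the longest. H3K4me3 peaks with Suz12 had about the same median length as those without, 2349 against 2307 bp, but a narrower spread, with quartiles of 1889 and 3060 bp against 1707 and 3416 bp. The score saturates, since 4319 of the H3K4me3 peaks (13.3%) lay within 5% of the highest score, more than the 3247 of bin 10. Bin 10 thus cannot be ranked further, and its border with bin 9 runs through peaks of nearly equal score.

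**Figure D2:**
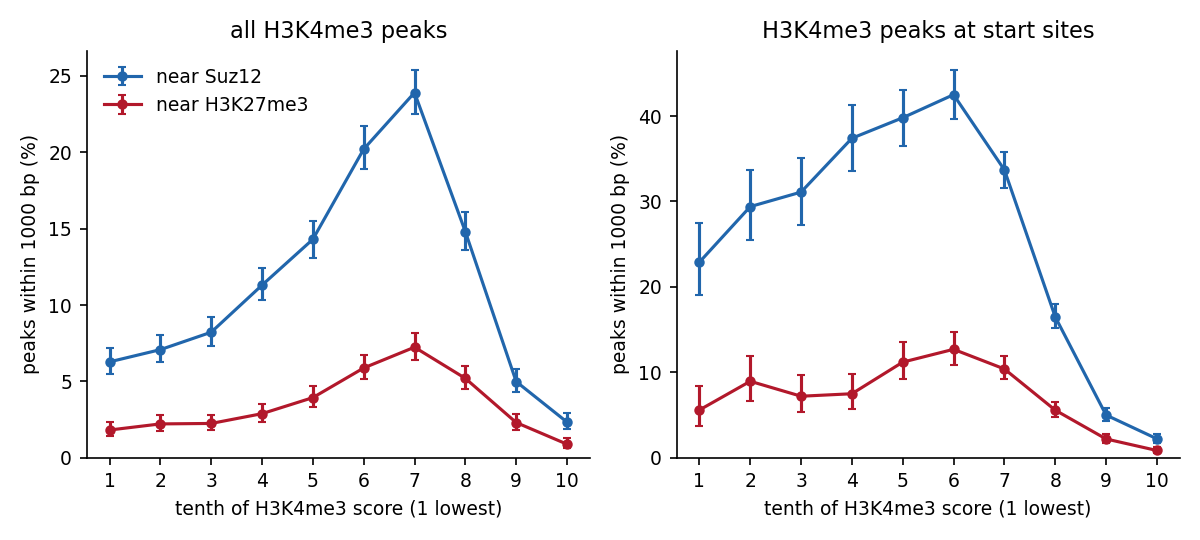
Share of H3K4me3 peaks within 1000 bp of a Suz12 or H3K27me3 peak (y axis, percent) by bin of H3K4me3 score, 10 bins from lowest to highest (x axis), for all peaks (left) and for those at start sites (right), with 95% Wilson intervals. Both curves are highest at bin 7 among all peaks and at bin 6 at start sites, and Suz12 is near 2.34% of all peaks in bin 10.

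Of the regions with H3K4me3 alone, the longest was the 98619 bp at Jarid2 (chr13:44728250-44826868), which encodes a PRC2 cofactor, and another was the 53575 bp at Rybp (chr6:100236296-100289870), a PRC1 subunit. By single peaks at a start site, Jade1 led with 36260 bp, followed by Zfp532 with 31225 bp, Jarid2 with 30042 bp, the divergent pair Mkrn1 and Gm10244 with a shared peak of 29191 bp, and Ctbp2 and 4930483O08Rik with 29159 bp. Ctbp2 encodes a transcriptional corepressor and Mkrn1 an E3 ubiquitin ligase. In each of these genes except 4930483O08Rik, H3K4me3 covered the whole window of 5001 bp.

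Where Suz12 was found, the amount of Suz12 went with the presence of H3K27me3. Regions with Suz12 were ordered by the bases under Suz12 peaks and divided into quintiles. H3K27me3 was found in 10.9% of the lowest quintile (interval 8.96 to 13.2%), in 15.8, 19.3 and 28.8% of the next, and in 54.0% of the highest (interval 50.6 to 57.4%), which began at 1908 bp. Over the same quintiles, H3K4me3 was found in 63.0, 75.5, 87.3, 91.6 and 86.1%, so that it was highest in the quintile below the top one, whose interval (89.5 to 93.3%) did not overlap that of the top one (83.6 to 88.3%). A larger region gives H3K27me3 more room, and the part of size in this relation was not tested.

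The same order was seen at start sites, where the window is fixed. H3K27me3 was called at 9.39% of the genes in the lowest quintile of Suz12 bases (13 to 273 bp) and at 56.1% of those in the highest (2354 to 5001 bp). For protein-coding genes with H3K4me3 the share went from 9.18% (interval 6.97 to 12.0%) over 14.4, 21.4 and 31.1% to 50.7% (interval 45.9 to 55.5%). Without H3K4me3, where a quintile held between 16 and 53 genes, it was 8.57% in the lowest (interval 2.96 to 22.4%) and 58.5% in the highest (interval 45.1 to 70.7%), with overlapping intervals between genes with and without H3K4me3 in each quintile.

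**Figure D3:**
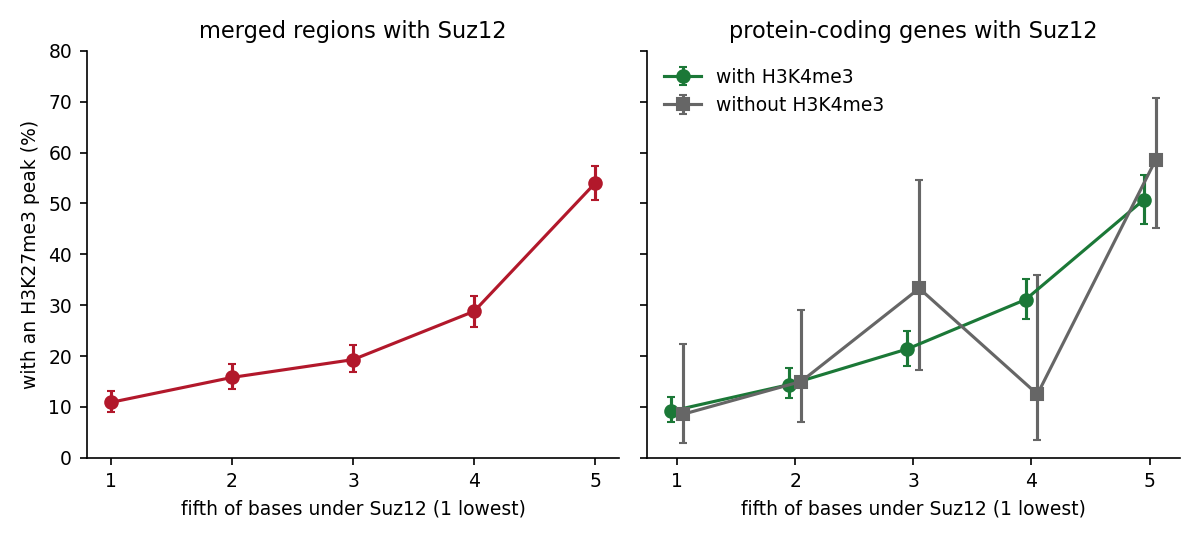
Share of merged regions (left) and of protein-coding genes (right) with Suz12 that also had an H3K27me3 peak (y axis, percent), by quintile of the bases under Suz12 (x axis), with 95% Wilson intervals. Over regions the share goes from 10.9 to 54.0%, and the genes with and without H3K4me3 have overlapping intervals in each quintile.

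Among the marked regions themselves, the rank relations were weak. Over the 861 regions with all 3 marks, Spearman's rho across regions was 0.40 between the bases under Suz12 and under H3K27me3 and 0.25 between their highest scores. Between H3K4me3 and Suz12 it was 0.34 for bases and -0.03 for scores, and between H3K4me3 and H3K27me3 0.18 and -0.03. Points of such a comparison share the region's length, which enters all values in bases. At the 720 genes with all 3 marks, within the fixed window, rho was 0.25 between the bases of Suz12 and H3K27me3, 0.06 between those of H3K4me3 and Suz12 and 0.01 between those of H3K4me3 and H3K27me3. For the scores at the same genes it was 0.20, -0.19 and -0.04.

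Suz12 and H3K27me3 peaks lay at different places along H3K4me3 peaks. Of the Suz12 peaks within 1000 bp of H3K4me3, 73.8% (interval 72.9 to 74.7%) lay wholly inside the H3K4me3 peak, against 46.0% of the H3K27me3 peaks (interval 43.5 to 48.4%). Another 652 H3K27me3 peaks, or 20.9% of the list (interval 19.5 to 22.4%), lay outside an H3K4me3 peak but within 1000 bp of it, compared with 8.82% of the Suz12 list (interval 8.31 to 9.36%). When the midpoint fell within an H3K4me3 peak, it was in the middle of 3 equal parts of that peak for 41.9% of 7163 Suz12 peaks (interval 40.7 to 43.0%) and for 13.6% of 829 H3K27me3 peaks (interval 11.5 to 16.1%). With Polycomb peaks on single-copy sequence, whatever the H3K4me3 peak, the shares were 41.2 and 10.8%.

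The profile along the gene showed the same split. H3K4me3 peaks were divided into 10 equal parts, from part 1 upstream to part 10 downstream. For 2266 peaks with Suz12 nearby and start sites on a single strand, Suz12 covered 18.1% of the bases in part 1, 54.8% in part 7 and 26.6% in part 10. Its highest part thus lay downstream of the centre. For 676 H3K4me3 peaks with H3K27me3 nearby, coverage by H3K27me3 was 7.50% in part 1, 1.04% in part 5 and 9.30% in part 10. It was 6.73 and 8.65% in the stretches of the same length just outside the peak on either side. Counted from the start site, H3K27me3 covered 1.94% of the genes with all 3 marks at the start site itself, 5.56% at 1000 bp upstream and 6.94% at 1000 bp downstream. Suz12 covered 51.2% of them at the start site and 61.7% at 1000 bp downstream, and H3K4me3 92.8 and 82.5%. The start site taken for each gene was the one nearest to a peak of any list, a choice that can raise the coverage there. H3K27me3 covers few bases, so its shares are low throughout.

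**Figure D4:**
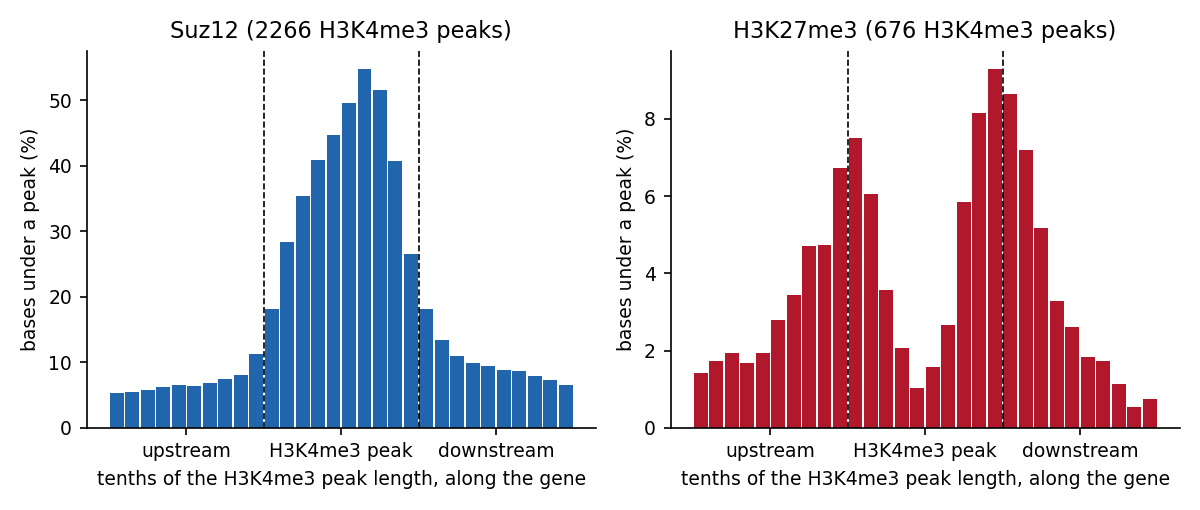
Share of bases under a Suz12 peak (left) or an H3K27me3 peak (right) along H3K4me3 peaks that have that mark within 1000 bp, in 10 equal parts of the H3K4me3 peak's length, oriented along the gene. The dashed lines are the peak's edges. Suz12 is highest inside, at 54.8% in part 7, and H3K27me3 is highest toward both edges, with 1.04% between them.

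H3K27me3 peaks also did not lie squarely on Suz12 peaks. Of all H3K27me3 peaks, 32.7% lay wholly inside a Suz12 peak, 13.5% crossed an edge, 20.3% lay outside within 1000 bp, and 33.5% lay farther away. On single-copy sequence, 29.1% lay farther away. H3K4me3 peaks that overlapped Suz12 held a median of 2.00 Suz12 peaks and up to 10, whereas 82.7% of those that overlapped H3K27me3 held 1 H3K27me3 peak.

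Most genes of the developmental transcription factor families had Suz12. Of 158 genes in 10 families, 146 had Suz12 at the start site (92.4%, interval 87.2 to 95.6%), against 12.2% of all genes. All 3 marks were found at 60 of them, against 2.80% of all genes, H3K4me3 and Suz12 at 58, H3K27me3 and Suz12 at 14 and Suz12 alone at 14. The other 12 comprised 4 with H3K4me3 alone, 1 with H3K4me3 and H3K27me3, and 7 with no mark. Among the unmarked genes were Gata1 of blood cells, Pax4 of the pancreas, Tbx22, Tbx19 and Sox5.

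The Hox genes, which set position along the body axis, all had Suz12 (39 of 39). All 3 marks were at 20 of them, H3K4me3 and Suz12 at 10, H3K27me3 and Suz12 at 5, and Suz12 alone at 4. The HoxD cluster from Evx2 to Hoxd3 formed the longest region with all 3 marks, 63788 bp on chr2:74652433-74716220, with 53311 bp under Suz12, 15445 bp under H3K4me3 and 5229 bp under H3K27me3. The longest such regions in the other clusters each held a part of the cluster. That in HoxA was 38413 bp long (chr6:52197329-52235741), that in HoxC 36847 bp (chr15:102970363-103007209) and that in HoxB 29561 bp (chr11:96276888-96306448). Suz12 covered most of each of them, whereas H3K4me3 was interrupted. In the HoxB region, which ran from Hoxb5 to Hoxb8, 2190 bp lay under H3K4me3, in 1 peak at Hoxb7. Its neighbours Hoxb5, Hoxb6 and Hoxb8 had Suz12 and H3K27me3 without H3K4me3. Outside that region other HoxB genes had H3K4me3, such as Hoxb9 with 3464 bp and Hoxb4 with 3077 bp. In HoxA, Hoxa5, Hoxa7 and Hoxa9 had H3K4me3 and Suz12, Hoxa6 between them had Suz12 and H3K27me3, and Hoxa3 had Suz12 alone.

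By the bases under Suz12, the leading genes with all 3 marks were Ebf2, Evx2, Hoxa11, the antisense transcript Hoxaas2 and Hoxc12, in each of which Suz12 covered the whole window of 5001 bp. Ebf2 encodes a helix-loop-helix factor of neural and fat cells. H3K27me3 covered 510 bp at Ebf2, 361 bp at Hoxa11 and 302 bp at Evx2. H3K4me3 was present in different amounts, with 4471 bp at Hoxc12, 2913 bp at Ebf2 and 119 bp at Evx2, where the window reached just the edge of a peak.

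With H3K4me3 and Suz12 and no H3K27me3 peak, Pcdh7 and its divergent transcript 4932441J04Rik, Lhx1 with Lhx1os, Hoxa5 and Hoxa9 were among the leading genes. Suz12 covered 4986 bp at both Hox genes and the whole window at the other genes named here, and its score was 3100 at each. Lhx1 is a LIM homeobox factor. H3K27me3 was thus uncalled even where Suz12 was widest, since 352 of the 628 genes in the highest quintile of Suz12 bases had an H3K27me3 peak and the others had none.

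Suz12 without H3K4me3 was found at the neural factors Foxb2 (4894 bp of Suz12), Nr2e1 (4759 bp) and Foxb1 (4807 bp) and at the antisense transcripts Six3os1 (4900 bp) and Pax6os1 (4858 bp). This holds for the window at the start site. The merged region of Foxb1 also held 5 H3K27me3 peaks, and that of Pax6os1 and Pax6 had 2702 bp under H3K4me3. Foxb2 and Foxb1 are forkhead factors and Nr2e1 is a nuclear receptor of neural stem cells. The longest region with Suz12 alone, 19235 bp on chr17:85607266-85626500, held Six3, a homeobox factor of the forebrain and eye, with 18224 bp under Suz12. With H3K27me3 in addition, Hoxb6 had 5001 bp of Suz12 and 151 bp of H3K27me3. Among the leading genes of this class were also 3 genes of 5S ribosomal RNA (n-R5s133, n-R5s141 and n-R5s117). Away from repeats, the longest region of the class was at Uncx (19749 bp, chr5:139535232-139554980), a homeobox factor of the somites, followed by Nkx2-1 (18991 bp, chr12:56518621-56537611), a factor of lung, thyroid and forebrain.

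H3K27me3 without Suz12 was found at few genes. With H3K4me3, its highest scores were 181 at Bhmg1 and Fbxo46, which share the peak, 105 at E2f6, 102 at Optn and 101 at Hmcn1. E2f6 is a repressor that works with a PRC1 complex, and Optn an autophagy receptor. Without H3K4me3 the highest scores were 251 at C130026I21Rik and 77.2 at Gm4981, both on multi-copy sequence, then 75.7 at Tdrd1, a gene of the piRNA pathway, 70.9 at Pcdhb20 and 69.2 at Gm4861.

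**Figure D5:**
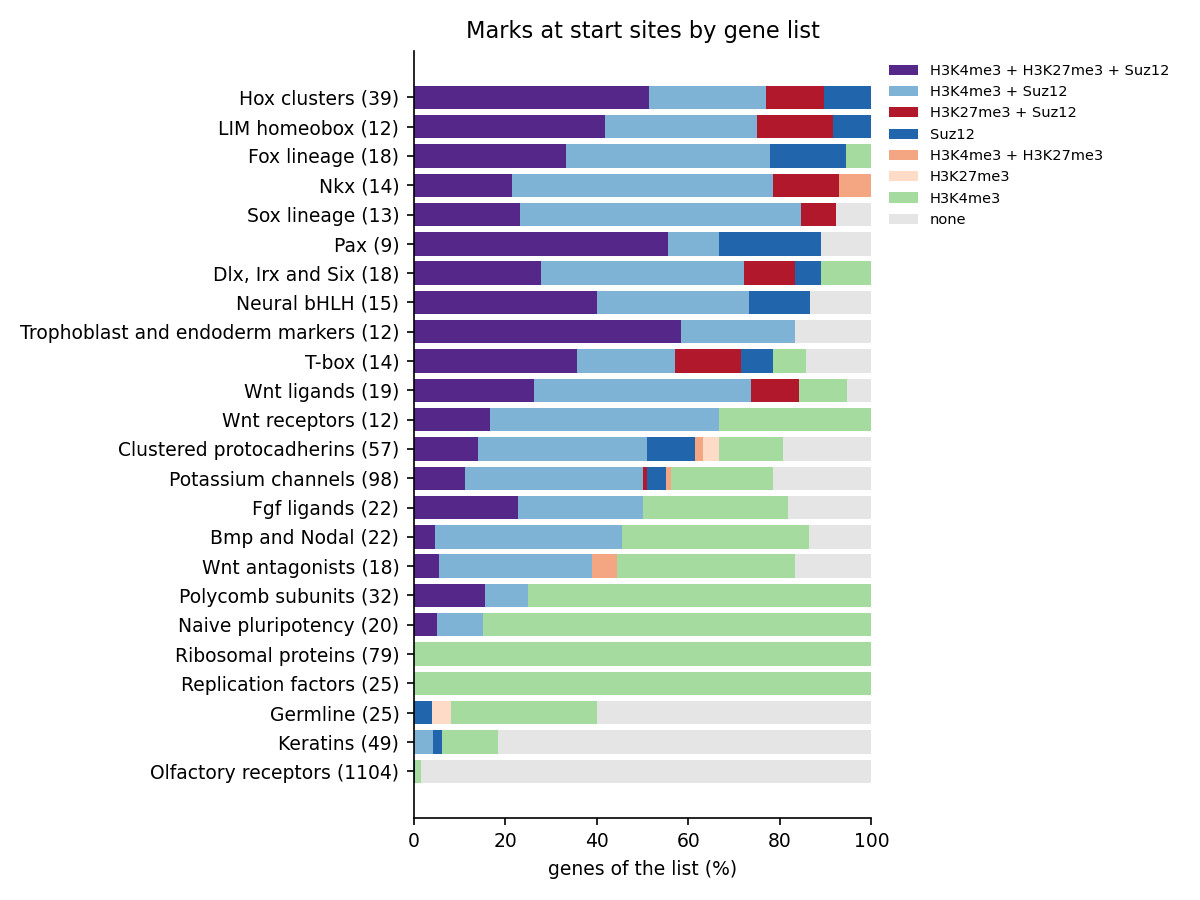
Share of the genes of each list (x axis, percent; number of genes in parentheses) with each combination of marks at the start site. The transcription factor families are mostly in the classes with Suz12, whereas all 79 ribosomal protein genes have H3K4me3 alone and olfactory receptor genes are almost all unmarked. The 98 potassium channel genes drawn include non-coding transcripts.

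Signalling genes were read against the 12.2% of all genes with Suz12. Of 19 Wnt ligands, 16 had Suz12 (interval 62.4 to 94.5%): 9 with H3K4me3, 5 with all 3 marks and 2, Wnt1 and Wnt10b, with H3K27me3 and no H3K4me3. Wnt5b and Wnt8a had H3K4me3 alone, and Wnt8b had no mark. Of 12 Wnt receptors, 12 had H3K4me3 and 8 had Suz12, of which Fzd1 and Fzd2 also had H3K27me3. Suz12 covered 3552 bp at Fzd1 and 3248 bp at Fzd2, but 186 bp at Fzd3, 142 bp at Fzd6 and 193 bp at Fzd9, and none was called at Fzd5, Fzd10, Lrp5 or Lrp6. Of 18 Wnt antagonists, 7 had Suz12, and at Dkk1 it came with H3K27me3 (745 bp of Suz12 and 141 bp of H3K27me3). Frzb had the widest Suz12 of this list, 3130 bp. Of 22 Fgf ligands 11 had Suz12, of 22 Bmp and Nodal family genes 10, and of 8 genes for Socs proteins and Cish, which damp cytokine signalling, 1 (Socs1, with 182 bp), which is 12.5% and so near the share of all genes. The intervals of the Wnt receptors (39.1 to 86.2%) overlapped those of the ligands and of the antagonists (20.3 to 61.4%).

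Genes that the study names for their chromatin fell into 3 classes in LIF-ESCs. Sox17, an endoderm factor, had all 3 marks, with 3508 bp of Suz12 at a score of 2031, and so did Fzd1 and Dkk1. Sfrp1, Fzd7 and Sfrp5 had H3K4me3 and Suz12. At Sfrp1, Suz12 was a peak of 203 bp with a score of 75.2. Socs3 and Apcdd1 had H3K4me3 alone. The study also measured chromatin by ChIP with PCR in MycER ESCs grown with LIF. With Myc and Mycn knocked down, it reported that PRC2 binding and H3K27me3 fell at Dkk1, Sfrp1, Sfrp5 and Apcdd1 after OHT withdrawal. A peak not called at these genes is thus no sign that the mark was absent.

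Of 12 trophoblast and endoderm genes, 10 had Suz12, against 12.2% of all genes, and 7 had all 3 marks, against 2.80%. Of these 12, 6 are also among the developmental factors above, and of the other 6, 4 had Suz12. With all 3 marks were Cdx2, Gata4, Foxa2, Hand1 and Tfap2c. Of 20 naive pluripotency genes, 17 had H3K4me3 alone, against 51.0% of all genes, and H3K4me3 covered the whole 5001 bp at Nanog, Pou5f1, Sox2, Klf4, Sall4, Zfp42, Fbxo15 and Tbx3. The exceptions were Esrrb, with 2054 bp of Suz12, Prdm14, with 1172 bp, and Dppa3, which had 1036 bp of Suz12 and 496 bp of H3K27me3.

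Polycomb genes were themselves divided. Of 32 genes for PRC1 and PRC2 subunits and cofactors, 24 had H3K4me3 alone, against 51.0% of all genes, and 8 had Suz12 (25.0%, interval 13.3 to 42.1%), against 12.2%. The 24 included Ezh2, Eed, Suz12 and Rnf2. All 3 marks were at PRC1 genes that included Bmi1 with 3483 bp of Suz12 and 915 bp of H3K27me3, Cbx8 with 3669 bp of Suz12, Pcgf5 with 1551 bp and Cbx2 with 807 bp. Bcor, Phf19 and Yaf2 had H3K4me3 and Suz12. Cbx7 and Pcgf2 had H3K4me3 over the whole window and no Suz12. None of 13 genes for H3K4 methylation complexes had Suz12, but the interval of this share (0 to 22.8%) held the 12.2% of all genes. Of 7 Cdk inhibitors, Cdkn2a, Cdkn2c and Cdkn1c had all 3 marks and Cdkn2b had H3K4me3 and Suz12.

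Of all genes, 51.0% had H3K4me3 alone. Housekeeping lists had H3K4me3 and nothing else: 79 of 79 ribosomal protein genes, 25 of 25 replication factors and 62 of 62 replication-dependent histone genes. No Suz12 peak lay at any of the 79, which allows a share of up to 4.64% by the Wilson interval. For the 25 replication factors the interval (0 to 13.3%) held the 12.2% of all genes. At the other end, 1087 of 1104 olfactory receptor genes and 347 of 350 vomeronasal receptor genes had no mark, against 36.2% of all genes. Germline genes were also mostly unmarked (15 of 25), and keratins too (40 of 49). Other gene families were mixed. Suz12 was at 52 of 94 protein-coding potassium channel genes (55.3%, interval 45.3 to 65.0%), against 12.2% of all genes, 36 of them with H3K4me3 and no H3K27me3 and 11 with all 3 marks. Of 57 clustered protocadherin genes, 35 had Suz12. Of 44 collagen genes, 16 had it.

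The pathway lists that came with the study differed in their share of genes with Suz12. Suz12 was at 51.5% of 101 Tgf-Bmp genes (interval 41.9 to 61.0%), 33.5% of 343 Wnt genes, 33.1% of 151 Hippo genes, 29.7% of 468 MAPK genes, 22.2% of 342 PI3K-Akt genes, 10.1% of 148 Jak-Stat genes, 9.84% of 61 mTOR genes and 6.47% of 309 pluripotency genes, against 12.2% of all genes. The intervals of the Jak-Stat (6.24 to 16.0%) and mTOR lists (4.59 to 19.8%) held the share of all genes. All 3 marks were at 27 of the Wnt genes (7.87%, interval 5.47 to 11.2%), against 2.80% of all genes. They were at 2 of the Jak-Stat genes (1.35%, interval 0.371 to 4.79%), an interval that held the share of all genes.

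The combinations also differed in promoter sequence, which their definition did not use. RefSeq promoters of 300 bases were matched for 19142 of 25755 genes, at the start site nearest to a peak of any list. The median ratio of observed to expected CpG was 0.769 at genes with H3K4me3 alone (quartiles 0.579 and 0.915), 0.710 with H3K4me3 and Suz12 (quartiles 0.534 and 0.860) and 0.745 with all 3 marks (quartiles 0.575 and 0.859). Without H3K4me3 it was 0.539 for Suz12 alone and 0.543 for H3K27me3 with Suz12, and 0.176 for genes with no mark. With H3K4me3 and H3K27me3 it was 0.763. The median GC content was 60.7% for H3K4me3 alone, 64.0% with H3K4me3 and Suz12, 65.3% with all 3 marks and 65.8% with H3K4me3 and H3K27me3. The quartiles of these classes overlapped. Across quintiles of Suz12 bases among genes with H3K4me3, the median CpG ratio stayed between 0.688 and 0.744.

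Short motifs were searched on both strands in the same promoters. CACGTG, the E-box bound by Myc and related factors, was in 8.03% of all promoters, in 10.7% of those with H3K4me3 alone (interval 10.1 to 11.3%), in 7.88% with H3K4me3 and Suz12 (interval 6.63 to 9.34%), in 9.40% with all 3 marks (interval 7.14 to 12.3%), in 12.5% with Suz12 alone (interval 7.30 to 20.6%) and in 3.97% with no mark. TATAAA was in 13.0% of all promoters, 6.41% with H3K4me3 alone, 9.40% with all 3 marks (interval 7.14 to 12.3%) and 24.4% with no mark. GGGCGG, the GC box, was in 45.5% of all promoters, 65.5% with H3K4me3 alone, 66.8% with H3K4me3 and Suz12, 65.6% with all 3 marks and 8.97% with no mark. CCAAT was in 39.3% of all promoters, 40.2% with H3K4me3 alone (interval 39.2 to 41.2%) and 32.8% with H3K4me3 and Suz12 (interval 30.5 to 35.2%). No motif contains another, but CACGTG and GGGCGG each hold a CG and so go with CpG content. The classes also differed in their neighbours. A start site on the opposite strand lay within 1000 bp upstream of 18.7% of the genes with H3K4me3 alone (interval 18.1 to 19.4%), of 9.18% with H3K4me3 and Suz12 (interval 8.04 to 10.5%) and of 7.64% with all 3 marks (interval 5.92 to 9.81%), against 11.2% of all genes.

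Repeated sequence weighed unequally on the 3 lists. Words of 31 bases were sampled along each peak and counted over the reference genome, and a peak was called multi-copy when their median was at least 2. Such peaks were 843 of the 3120 H3K27me3 peaks (interval 25.5 to 28.6% of the list), 22.3% of the H3K4me3 list and 8.05% of the Suz12 list. They were 65.1% of the 312 highest-scoring H3K27me3 peaks, against 6.13% of the 3247 highest-scoring H3K4me3 and 6.28% of the 1131 highest-scoring Suz12 peaks. Chromosome 8 held 17.1% of the H3K27me3 peaks, against 5.55% of the H3K4me3 and 5.91% of the Suz12 peaks. An array of 5S ribosomal RNA genes at chr8:123537294-123624449 formed 1 region of 87156 bp with 142 H3K27me3 and 26 Suz12 peaks, 85971 bp under Suz12 and no H3K4me3 peak. A second array, around Rn4.5s, a small RNA gene (chr6:47649976-47687174), carried all 3 marks over 37199 bp, as did a cluster of interferon genes around Ifnz (chr4:88771587-88807004, 35418 bp).

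When the peaks counted were restricted to single-copy sequence and their neighbours were not, 70.9% of the H3K27me3 peaks lay near Suz12 and 58.1% near H3K4me3, compared with 54.8 and 28.5% of the multi-copy ones. Of the H3K4me3 peaks, 13.3% on single-copy and 4.55% on multi-copy sequence lay near Suz12. The Suz12 peaks differed little, with 76.2 and 74.1% near H3K4me3 (intervals 75.4 to 77.1% and 71.1 to 76.8%).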

How the data were processed

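R1 mouse ESCs grown with LIF were profiled by ChIP-sequencing for H3K4me3, H3K27me3 and Suz12. According to the study's methods and the submitters' processing notes, reads from a HiSeq2000 were placed on GRCm38 by Bowtie2 2.2.3. The authors used uniquely placed reads and took peaks from MACS 1.4.2 with its defaults. They deposited 1 list for each mark, in which the score of a peak is a negative log p-value, and whether the libraries of a mark were pooled is not stated. Scores depend on depth and were compared within a list. MACS at default parameters looks for narrow peaks, which may split or miss broad domains of H3K27me3.

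The members and gene lists were chosen with earlier results of these data known. The histone list was widened to current symbols after the gene names were seen. Peaks were joined within 1000 bp, and genes were marked within 2500 bp of the start sites of 45302 curated RefSeq transcripts (25755 symbols, without pseudogenes). Genes named are members of the lists, those the study names, and for each combination the 5 with the most Suz12 bases, the highest H3K27me3 score or the longest H3K4me3 peak. Sequence came from RefSeq on GRCm38.p6. Words of 31 bases were sampled every 50 bp in H3K4me3 peaks and every 10 bp in the others. Python 3.11.15 with numpy 2.4.6, pandas 2.3.3, scipy 1.17.1, numba 0.67.0 and matplotlib 3.10.9 was used. On simulated data, 2800 of 2800 regions had their known combination, and 4000 of 4000 interval comparisons matched a plain loop. Alternatives changed distance, window, score limit, list length, measure, promoter window and start site. Those without multi-copy peaks or without chromosome 8 were chosen after seeing the data. The Myc-ESC lists were not used here. Some genes that the rule names are not reported here.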

Additional observations from a re-analysis of the deposited data

How the results depend on the processing

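With 1 list for each mark, no paired analysis was possible because no value exists per replicate, and leaving out a replicate could not be done. A value counted as moved when it left the interval of the main value, or, for a count of genes, when it changed by more than 1.5 times. Of 70 alternatives to 14 values, 33 stayed and 37 moved. A reversal meant a change of sign, which only the rho of Suz12 and H3K27me3 could have, and its sign did not change. Values on single-copy sequence here restrict all 3 lists.
Regions with all 3 marks were 1.81% of all regions by overlap, 3.18% at 5000 bp, 0.319% at a score of at least 100, 0.172% with lists of equal length and 3.26% on single-copy sequence. Suz12 peaks near H3K4me3 were 67.3% by overlap, 86.0% at 5000 bp and 71.2% at a score of at least 100. With lists of equal length they were 1.06%. Both lists were cut to 3120 peaks there, and the part of each cut was not tested. In the full lists, Suz12 was near 2.34% of the H3K4me3 peaks in bin 10 of the score. H3K27me3 peaks near Suz12 were 46.2% by overlap, 75.3% at 5000 bp, 72.9% at the higher score, 48.0% with equal lists and 70.6% on single-copy sequence. H3K4me3 peaks near Suz12 were 12.5% at 5000 bp, 8.51% at the higher score, 0.705% with equal lists and 13.2% on single-copy sequence. For the highest quintile of H3K4me3 scores this share was 4.65% at 5000 bp, 1.14% at the higher score, 1.28% with equal lists and 2.75% on single-copy sequence.
Genes with all 3 marks numbered 311 with a window of 1000 bp, 60 at the higher score, where 339 H3K27me3 peaks remained, and 13 with equal lists. Of the genes with H3K4me3 and Suz12, those with H3K27me3 made up 11.7% at 1000 bp, 30.0% at 5000 bp, 3.22% at the higher score and 41.9% with equal lists. Developmental factors with Suz12 stayed between 88.0 and 93.0%, while the share of all genes lay between 6.40% with equal lists and 12.8%. The rho of Suz12 and H3K27me3 was 0.40 by bases covered, 0.03 at the higher score and 0.18 without peaks near the highest score. With 1 Polycomb peak for each H3K4me3 peak, 48.8% of the Suz12 and 11.4% of the H3K27me3 midpoints lay in the middle of 3 equal parts. For H3K27me3 this was 19.7% at the higher score and 10.6% on single-copy sequence. The median CpG ratio of genes with H3K4me3 alone was 0.731 over 1000 bp. The cause of these shifts was not tested, except that a stricter score or a shorter list leaves fewer peaks.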

Other observations

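Of 7225 multi-copy H3K4me3 peaks, 4302 had a median of at least 100 copies, compared with 63 H3K27me3 and 17 Suz12 peaks, and 937 of the 7225 lay at start sites. Repeat families were not analysed here. Each of the 8 longest regions with H3K27me3 alone lay on multi-copy sequence on chromosomes 1, 5 or 8, and 1 of them held a start site.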
